A study of Macaca fascicularis and Mus musculus with 492 samples.

Results

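The collagen genes of the cynomolgus monkey (Macaca fascicularis) were described as the 44 rows of the monkey expression table, of 28797 rows with values, whose symbol is COL, a number, A and a number. They cover 28 collagen types. By the structure of their proteins, 11 are fibrillar, 6 belong to the type IV basement membrane network, 5 to the type VI beaded filaments and 10 to the fibril-associated collagens with interrupted helices. A further 4 are transmembrane, 2 are multiplexins, 1 forms anchoring fibrils, 3 form short-chain networks, and the remaining 2 (COL26A1 and COL28A1) fit none of these families. All 44 had a value above 0 in at least 1 cell, and 29 passed the filter on low values and were tested.

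The study measured single cells by SC3-seq, which amplifies and sequences the 3′ ends of polyadenylated RNA. The 421 monkey cells comprise 390 cells of embryos collected between embryonic day (E) 6 and 17 and 31 cells of embryonic stem cell (ESC) cultures. Blastocysts before implantation were dissociated whole, while after implantation a fragment holding the epiblast, amnion, hypoblast and yolk sac endoderm was cut from the implantation site. The labels give no genotype, treatment or strain for the embryos and name no individual embryo. The ESC are of line CMK6, cultured either without feeders (9 cells) or on mouse embryonic fibroblast feeders (14 cells), and of line CMK9 on feeders (8 cells), so each line stands for 1 isolate.

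Collagens are secreted or membrane proteins built from a triple helix of alpha chains. The fibrillar types I, III and V make the tensile fibres of connective tissue, and type IV makes the sheet of the basement membrane on which epithelia rest. Type VI forms microfilaments that link cells to the surrounding matrix, fibril-associated collagens coat fibres, and transmembrane collagens act as adhesion receptors. The chains are hydroxylated, glycosylated and folded in the endoplasmic reticulum, then trimmed and crosslinked outside the cell. In the early primate embryo the hypoblast lines the blastocoel on a basement membrane, and the extraembryonic mesenchyme fills the space between the yolk sac and the trophoblast with loose connective tissue.

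Cells were assigned to classes by clustering without any collagen gene and without the collagen-processing genes, and clusters were named from fixed markers as "-like" classes. Extraembryonic-mesenchyme-like cells (32) raised 7 of 8 mesenchyme markers in both of their clusters, and hypoblast-like cells (54, all from E07 to E09) raised 8 of 10 endoderm markers. Epiblast-like cells raised 7 of 8 markers in each cluster and trophectoderm-like cells 8 of 9. The gastrulating-like cells held a cluster with 8 of 9 gastrulation markers that also raised 5 of 10 endoderm markers, and a cluster with 5 of 9 that also raised 4 of 8 epiblast markers. A cluster of 32 cells, 31 of them from E06, raised 4 of 8 epiblast markers and was left unnamed. Clusters also split by day within a class. Epiblast-like cells of E07 to E09, of E13 and E14 and of E16 and E17 each formed a cluster, mesenchyme-like cells of E13 and E14 lay in different clusters, and gastrulating-like cells came mostly from the cluster with 5 of 9 markers on E13 and E14 and mostly from that with 8 of 9 on E16 and E17. A difference between days within a class is therefore also one between clusters. The unit of analysis was a class on 1 embryonic day, or 1 ESC culture, with at least 5 cells. There were 24 units. The spread behind each p-value is therefore that among embryonic days or among ESC cultures, and animals could not be separated. The median depth was 1879343 reads per cell (166742 to 4491534), with 7799 to 13302 genes detected, and 17 cells lay under 500000 reads.

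Collagen RNA was concentrated in the extraembryonic-mesenchyme-like cells. The summed level of the 44 genes, in RPM (the reads of a gene relative to all reads of its cell), averaged 11420 per cell on E13 (6577 to 16520 over 16 cells) and 26600 on E14 (13450 to 55280 over 14 cells). Both E16 cells of the class lay higher still, at a mean of 51850. No other unit of at least 5 cells had a mean above 2373. The hypoblast-like cells came next, with means of 1619, 1906 and 2373 RPM on E07, E08 and E09. Epiblast-like cells averaged 245.9, 203.5 and 335.2 RPM on those same days and 407.3, 438.8, 1506 and 396.5 on E13, E14, E16 and E17. Trophectoderm-like cells averaged 73.7, 89.2, 107.7 and 222.3 RPM from E06 to E09, below the epiblast-like cells on E07, E08 and E09. On E14 they averaged 462.5 RPM, close to the epiblast-like cells of that day. The ESC cultures averaged 686.1 RPM (CMK6 without feeders), 947.4 (CMK6 on feeders) and 849.7 (CMK9), and gastrulating-like cells 585.2 to 1033. RPM was not divided by gene length, and since SC3-seq reads 3′ ends a sum over genes is a share of transcripts read there.

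**Figure D1:**
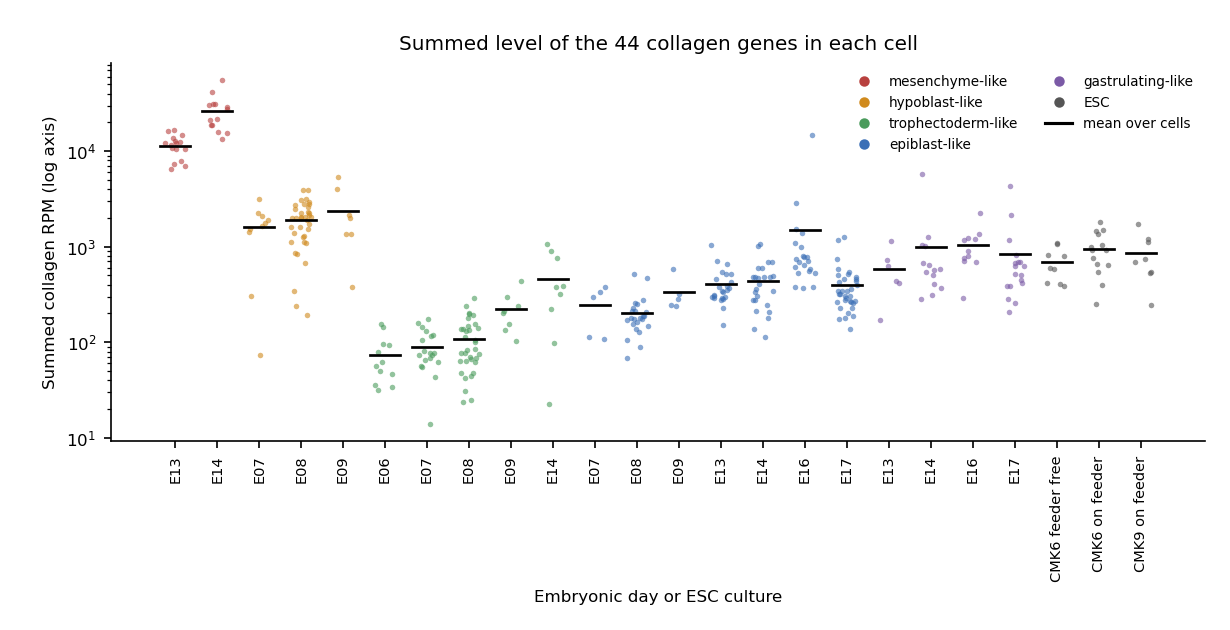
Each point is a cell, placed by embryonic day or ESC culture and coloured by class, with the summed RPM of the 44 collagen genes on a log axis and a black bar at the mean over cells. The mesenchyme-like cells of E13 and E14 lie between 6577 and 55280 RPM, and 1 cell of another class reaches their lowest value.

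The E16 epiblast-like mean rested largely on a single cell of 14670 RPM. That cell carried POU5F1, a pluripotency factor, at 1148 RPM together with LUM, a small proteoglycan of connective tissue, at 1386 RPM and COL3A1 at 3507 RPM. In all, 8 of the 389 cells outside the mesenchyme-like class reached the lowest mesenchyme-like cell's mean over the 8 mesenchyme markers (4.69 on the log2 scale). They were 2 epiblast-like, 5 gastrulating-like and 1 trophectoderm-like. Without them the mean sum was 847.6 RPM in E16 epiblast-like cells, 634.2 in E14 gastrulating-like cells (996.3 with them) and 638.8 in E17 gastrulating-like cells (840.9 with them). Their part in the results below was not tested beyond leaving them out.

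The types that made up the sum differed by class. In mesenchyme-like cells of E13 and E14, type III gave 26.1% and 35.7% of the summed level, type I gave 25.7% and 32.95%, type VI gave 26.9% and 16.3%, and type IV gave 12.2% and 9.33%. In hypoblast-like cells type IV alone gave 62.1%, 83.9% and 84.7% on E07, E08 and E09, while type I gave 25.6%, 6.46% and 2.54%. Type I was the leading type in ESC, with 53.7% to 75.7% of the sum, and in late epiblast-like cells, with 31.3% to 60.97%. Early trophectoderm-like cells drew on type VI (30.7% to 42.3%), type XVIII (16.2% to 31.2%) and type IV (11.9% to 27.6%). The trophectoderm-like cells of E14 instead had 61.8% type IV and 14.6% type VII.

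**Figure D2:**
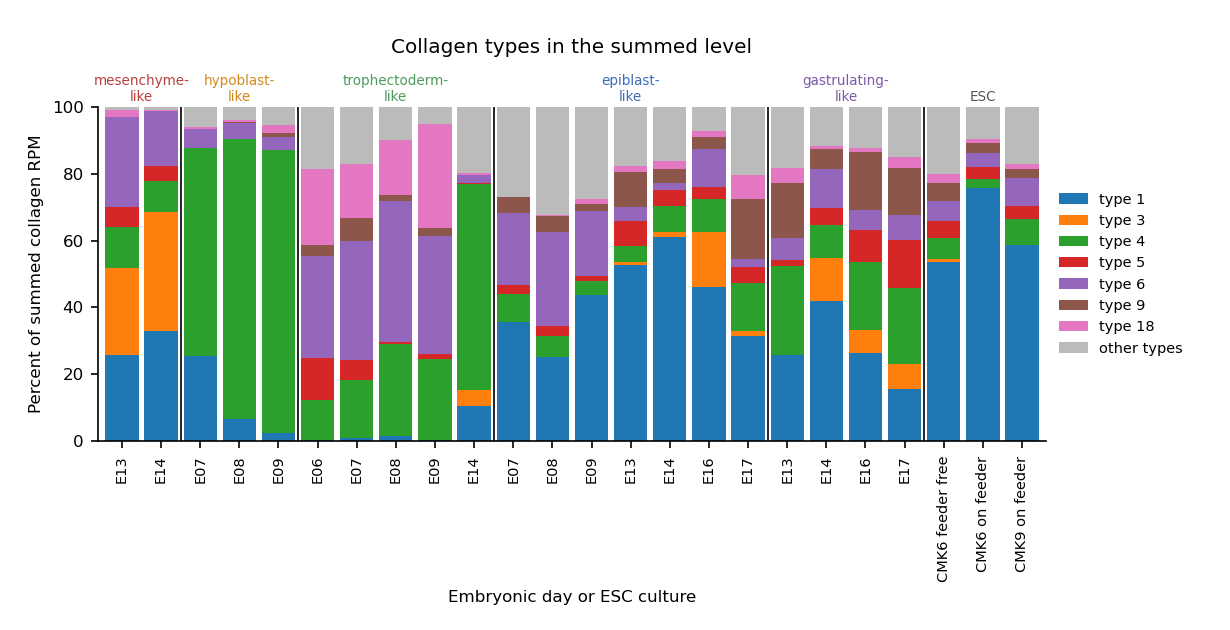
Stacked bars give the percent of the summed collagen RPM taken by each collagen type, for each day or ESC culture of each class. Type IV fills most of the hypoblast-like bars (62.1% to 84.7%), and types I, III and VI fill most of the mesenchyme-like bars.

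Against epiblast-like cells of the same days (E13 and E14), most collagen genes were higher in mesenchyme-like cells. In limma's test on log2(RPM + 1) unit means, 17 of the 29 tested collagens were higher and 4 lower, where 11.6% of all 12277 tested genes were called higher and 13.5% lower. The median change was 2.84 for the collagens and -0.13 for all genes. All 4 tested type IV chains, 6 of 7 fibrillar chains and 3 of 4 type VI chains were among the higher ones. The 4 lower ones were COL5A3, COL26A1, COL9A1 and COL25A1. Against hypoblast-like cells of E07 to E09, 16 were higher and 2 lower (10.7% and 18.1% of all genes), with a median of 1.81 against -0.25. There the fibrillar (6 of 7) and type VI chains (3 of 4) differed, but the major type IV chains COL4A1 and COL4A2 were not called. These classes were not sampled on the same days, so class and day cannot be told apart in that comparison. In both comparisons a collagen could pass the filter on low values through the 2 mesenchyme-like units alone. The counts of tested and higher collagens depend in part on that, as do those of all genes.

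Hypoblast-like cells were set apart from their neighbours in the blastocyst by type IV and COL23A1. Against epiblast-like cells of E07 to E09, 4 collagens were higher and 5 lower (10.1% and 12.1% of all genes), and the collagen median equalled that of all genes (-0.11). With the day as a block the lower ones were 3, since COL22A1 (adjusted p = 0.0708) and COL7A1 (adjusted p = 0.111) were no longer called. Against trophectoderm-like cells of E06 to E09, 6 were higher and 1 lower (7.44% and 6.34% of all genes), with medians of 0 and -0.01. Trophectoderm-like cells themselves had 2 collagens higher and 9 lower than epiblast-like cells (9.66% and 13.1% of all genes), with medians of -0.44 and -0.11. The trophectoderm-like group included E06 in both comparisons, a day without a hypoblast-like or epiblast-like unit.

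Within the epiblast-like cells, 9 collagens were higher and 4 lower on the late days (E13 to E17) than on the early days (E07 to E09), where 13.5% of all genes were higher and 21.6% lower. The median was 0.58 for the collagens and -0.20 for all genes. Gastrulating-like cells of E16 and E17 differed from epiblast-like cells of those days in 4 collagens, 3 higher and 1 lower (1.7% and 2.37% of all genes). The ESC cultures differed from late epiblast-like cells in 1 collagen, which was higher (9.02% of all genes higher, 2.01% lower). At an unadjusted p under 0.05 that last comparison had 6 higher and 0 lower. Quantile scaling moved the median of all genes by 0.20 (mesenchyme against hypoblast), 0.21 (late against early epiblast), 0.11 (gastrulating) and -0.28 (ESC). With it the share of calls that were higher went from 37.2% to 49.9%, from 38.5% to 53.3%, from 41.8% to 52.9% and from 81.8% to 52.7% in those comparisons, and the collagen counts became 16 and 2, 10 and 4, 3 and 2, and 0 and 0.

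**Figure D3:**
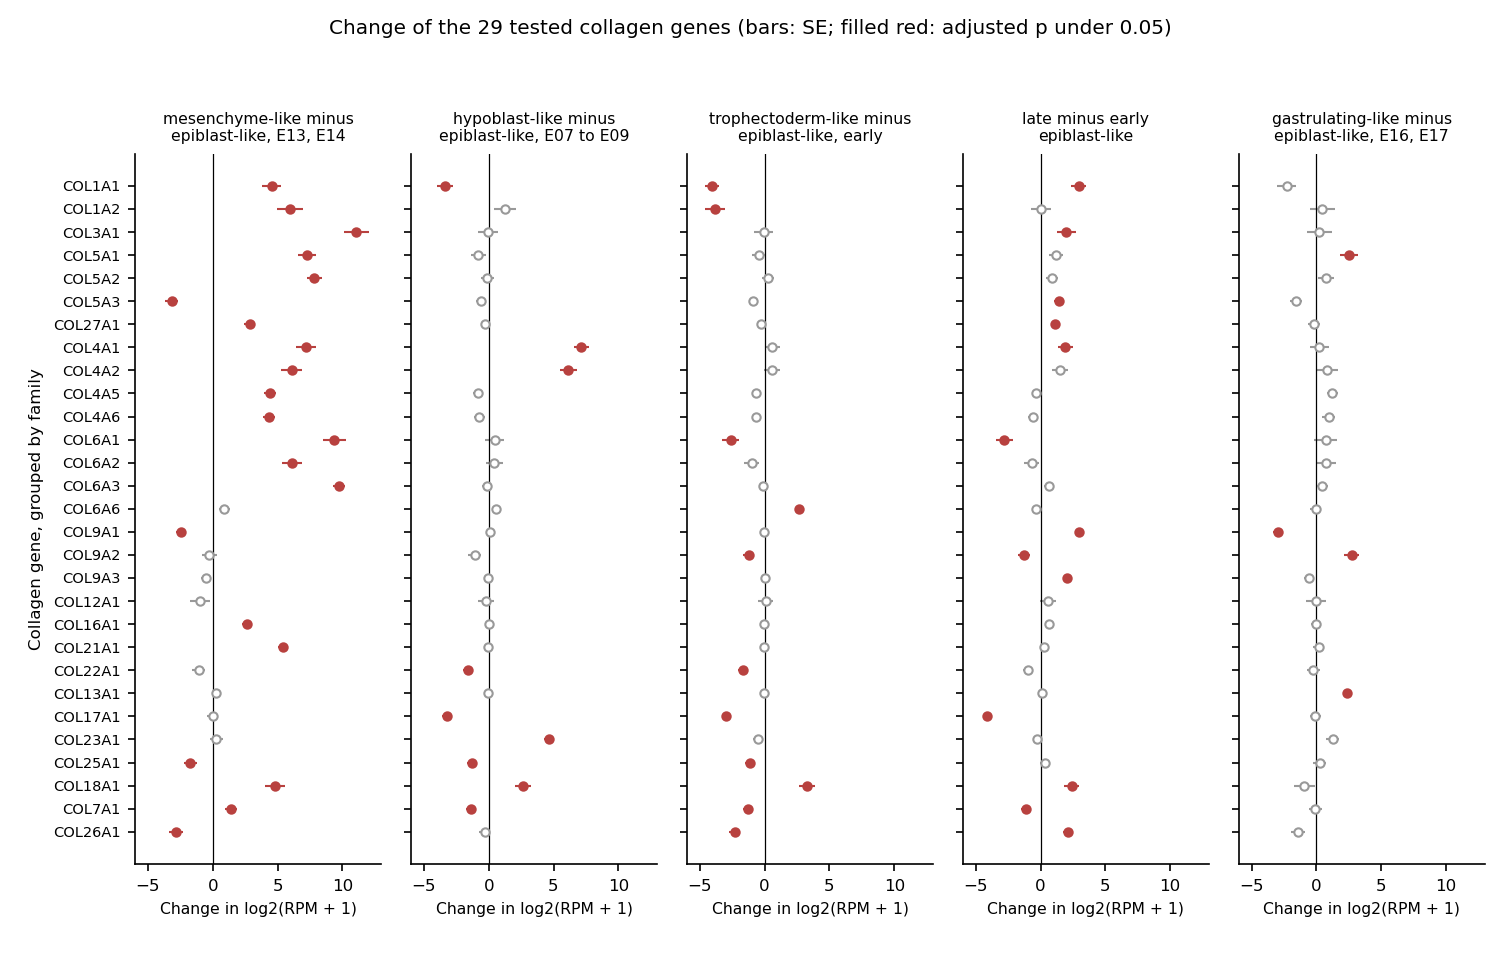
For each of the 29 tested collagen genes, in rows by family, the change in log2(RPM + 1) is plotted with bars of 1 SE. Filled red points mark an adjusted p under 0.05. The panels set mesenchyme-like, hypoblast-like, trophectoderm-like and gastrulating-like cells against epiblast-like cells, and late against early epiblast-like cells. The mesenchyme-like panel carries 17 genes called higher, and the gastrulating-like panel 3.

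Among the fibrillar collagens, COL3A1, the only chain of type III, set the mesenchyme-like cells apart. Its mean level in log2(RPM + 1) was 11.40 on E13 and 12.96 on E14, and each of the 32 cells of the class held between 1084 and 25940 RPM (median 4170). It was 0.05, 0.00 and 0.00 in hypoblast-like cells from E07 to E09, with a read in 1 of 54 cells. Outside the class 3 cells reached the lowest mesenchyme-like value. In epiblast-like cells COL3A1 stood at 0.26, 0.00 and 0.00 on the early days and at 1.24, 0.96, 4.89 and 1.16 on E13, E14, E16 and E17. Gastrulating-like cells held 0.86, 3.04, 4.81 and 1.66 on those same late days. The level on E16 thus stood above the other late days in both classes, and the mesenchyme-like days overlapped neither. The change between mesenchyme-like and epiblast-like cells was 11.08 ± 0.97 (SE; adjusted p = 6.77e-09), and against hypoblast-like cells it was 12.16 ± 0.89 (adjusted p = 2.05e-10). COL3A1 was also called higher in late than in early epiblast-like cells, by 1.98 ± 0.74 (adjusted p = 0.0417). Without E16 that change was 1.05 (adjusted p = 0.265), and the call was lost as well without any of E07, E08, E09, E13 or E14.

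COL1A1 and COL1A2 encode the chains of type I collagen, the main protein of bone, skin and tendon. In mesenchyme-like cells COL1A1 stood at 10.68 and 12.36 on E13 and E14 and COL1A2 at 9.75 and 11.34. In hypoblast-like cells COL1A2 stood at 7.48, 5.18 and 3.70 on E07, E08 and E09, while COL1A1 stayed at 0.69, 0.68 and 0.89. The chains thus diverged there: COL1A2 was read in 51 of 54 hypoblast-like cells (94.4%) and COL1A1 in 13 (24.1%, exact 95% interval 13.5% to 37.6%, counting error only). Early trophectoderm-like cells had neither at a sizeable level, with COL1A1 at 0.00, 0.08, 0.27 and 0.00 and COL1A2 at 0.19, 0.40, 0.52 and 0.35 from E06 to E09. Epiblast-like cells had both, COL1A1 at 4.21, 3.44 and 4.78 early and 6.68, 7.27, 8.15 and 6.21 late, and COL1A2 at 4.59, 3.71 and 4.28 early and 5.44, 3.69, 5.19 and 2.58 late. The early and late days did not overlap for COL1A1 and did for COL1A2. ESC stood at the opposite end from the hypoblast, with COL1A1 at 8.28, 9.12 and 8.41 and COL1A2 at 2.51, 4.23 and 3.74 in CMK6 without feeders, CMK6 on feeders and CMK9.

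In the tests, COL1A1 was higher in mesenchyme-like than in hypoblast-like cells by 10.76 ± 0.68 (adjusted p = 2.23e-11). It was lower in hypoblast-like than in epiblast-like cells (-3.39 ± 0.60, adjusted p = 0.000201), and also lower in trophectoderm-like cells (-4.06 ± 0.57, adjusted p = 9.42e-06). It was higher in late than in early epiblast-like cells by 2.94 ± 0.57 (adjusted p = 0.000339). COL1A2 was higher in hypoblast-like than in trophectoderm-like cells by 5.09 ± 0.76 (adjusted p = 3.26e-05) and lower in trophectoderm-like than in epiblast-like cells (-3.83 ± 0.76, adjusted p = 0.000575). With units of at least 10 cells, the COL1A1 difference between hypoblast-like and epiblast-like cells and the COL1A2 difference between trophectoderm-like and epiblast-like cells were not called.

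The ratio of mean RPM of COL1A1 to COL1A2 was 1.88 in mesenchyme-like cells, 1.94 in gastrulating-like, 3.10 in epiblast-like, 23.4 in ESC and 0.0168 in hypoblast-like cells. The length of the transcripts does not enter such a ratio between classes. Cell by cell, both chains went together in mesenchyme-like cells (Pearson r = 0.86 over 32 cells) and in gastrulating-like cells (r = 0.70 over 49 cells), but not in hypoblast-like cells (r = 0.07 over 54 cells). The correlation was also weak in epiblast-like cells (r = 0.27 over 139 cells) and ESC (r = 0.30 over 31 cells). In trophectoderm-like cells it was 0.84 over 84 cells, of which 13 had both chains read. These correlations are descriptions over cells that share embryos and libraries.

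**Figure D4:**
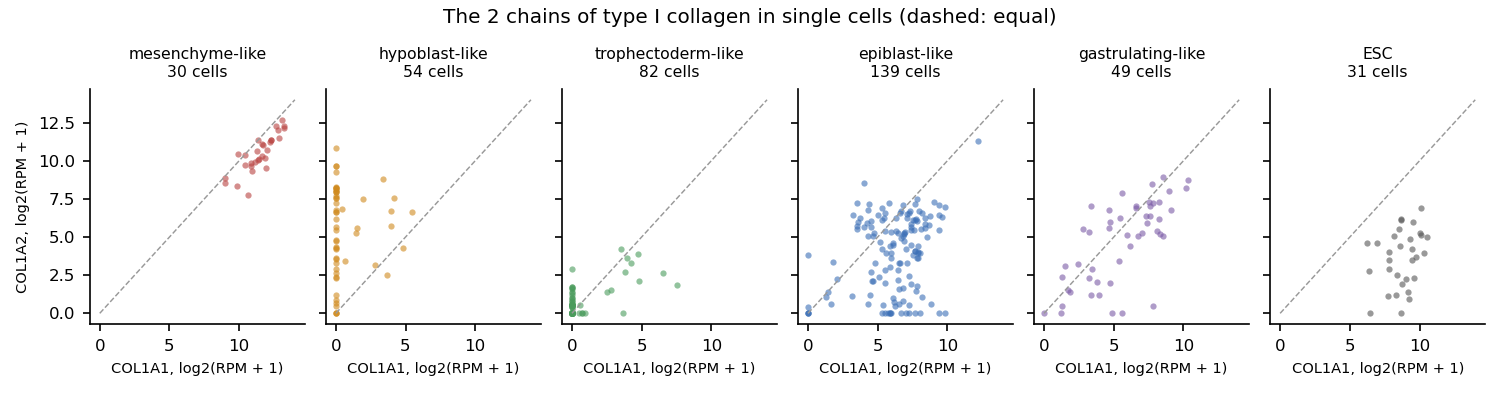
Each point is a cell, with COL1A1 on the x axis and COL1A2 on the y axis, both in log2(RPM + 1), in a panel per class, and the dashed line marks equal values. Hypoblast-like cells lie along the y axis, with COL1A2 read in 51 of 54 cells and COL1A1 in 13, and ESC lie below the line.

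Type V chains nucleate type I fibrils. COL5A1 stood at 8.44 and 8.98 and COL5A2 at 7.92 and 9.14 in mesenchyme-like cells of E13 and E14, against at most 0.21 in any hypoblast-like day for either. COL5A3, the other chain, went the other way: it stood at 0.00 and 0.06 in mesenchyme-like cells and at 3.57 and 2.86 in epiblast-like cells of those days, and at 3.47, 2.71 and 3.70 in the ESC cultures. The changes between mesenchyme-like and epiblast-like cells were 7.24 ± 0.70 for COL5A1 (adjusted p = 3.54e-08), 7.84 ± 0.60 for COL5A2 (adjusted p = 7.05e-10) and -3.18 ± 0.47 for COL5A3 (adjusted p = 1.4e-05). Against hypoblast-like cells they were 8.64 ± 0.64 for COL5A1 (adjusted p = 2.75e-10) and 8.46 ± 0.55 for COL5A2 (adjusted p = 3.22e-11). COL3A1 and COL5A2 are neighbours in the reference annotation. Their levels went together across the 32 mesenchyme-like cells (r = 0.75), with mean RPM of COL3A1 14.6 times that of COL5A2. In the same cells the neighbours COL6A1 and COL6A2 had r = 0.40, and COL1A1 and COL3A1, which are not neighbours, had r = 0.84. A link between gene position and these correlations was not tested.

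COL5A1 was also higher in gastrulating-like cells. It stood at 4.87 and 5.62 there on E16 and E17 and at 3.44 and 2.04 in epiblast-like cells, so the days did not overlap. The change was 2.51 ± 0.70 (adjusted p = 0.0418). The call was lost without any of the 4 units, and without E17 epiblast-like cells the change was 1.80 (adjusted p = 0.413).

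The cartilage collagens were low. COL2A1, the main fibrillar chain of cartilage, did not pass the filter. It stood at 4.92 in CMK6 cells without feeders, 1.14 in CMK6 on feeders and 0.56 in CMK9, and at no more than 1.51 in any embryonic unit. COL11A1, which copolymerises with it, was likewise untested and stood at 1.96, 2.62 and 1.10 in those cultures and at most 1.05 in embryonic units of at least 5 cells. COL11A2 and COL24A1 stayed at or below 1.31 in the named units of at least 5 cells. COL11A2 stood higher, at 2.42, in the unnamed cells of E06. COL27A1, a fibrillar chain of cartilage primordia, was tested and was called higher in mesenchyme-like cells (3.96 and 3.63 on E13 and E14) than in epiblast-like cells (1.06 and 0.85).

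COL4A1 and COL4A2, which together build the common type IV network of basement membranes, were the leading collagens of the hypoblast. COL4A1 stood at 8.37, 9.80 and 9.94 in hypoblast-like cells of E07, E08 and E09 and COL4A2 at 7.13, 8.004 and 8.61, and both were read in all 54 cells. Epiblast-like cells of those days held COL4A1 at 1.87, 2.89 and 1.91 and COL4A2 at 1.79, 1.19 and 2.35. The unit means of these classes did not overlap for either gene, while single cells did: the lowest hypoblast-like cells held 0.56 RPM of each gene, and the highest early epiblast-like cells 63.8 RPM of COL4A1 and 14.1 of COL4A2. In trophectoderm-like cells COL4A1 stood at 1.84, 1.61, 3.50 and 4.27 from E06 to E09 and at 6.43 on E14, and COL4A2 at 1.13, 1.46, 2.82 and 4.06 and at 5.92. Mesenchyme-like cells lay in or near the same range, with COL4A1 at 9.93 and 10.77 and COL4A2 at 8.33 and 8.90.

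The changes between hypoblast-like and epiblast-like cells were 7.15 ± 0.60 for COL4A1 (adjusted p = 8.01e-09) and 6.14 ± 0.66 for COL4A2 (adjusted p = 2.75e-07). Against trophectoderm-like cells they were 6.56 ± 0.57 for COL4A1 (adjusted p = 9.41e-09) and 5.55 ± 0.62 for COL4A2 (adjusted p = 5.82e-07). COL4A1 in mesenchyme-like cells exceeded epiblast-like cells by 7.19 ± 0.74 (adjusted p = 8.84e-08). These genes are adjacent in the reference annotation. Their levels went together across the 54 hypoblast-like cells (r = 0.95) and the 32 mesenchyme-like cells (r = 0.70), and less closely across the 139 epiblast-like cells (r = 0.41), where many values were low. The likewise adjacent COL6A1 and COL6A2 had r = 0.14 in hypoblast-like cells.

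COL4A5 and COL4A6, the chains of a type IV network found in smooth muscle and specialised epithelia, belonged to the mesenchyme instead. COL4A5 stood at 4.198 and 4.84 in mesenchyme-like cells and at 0.00, 0.35 and 0.00 in hypoblast-like cells, and COL4A6 at 4.71 and 4.06 against 0.00, 0.09 and 0.62. Both were called higher in mesenchyme-like cells in both comparisons. COL4A3 and COL4A4, the chains of the adult glomerular membrane, did not pass the filter, and their highest levels in a unit of at least 5 cells were 0.50 and 0.93, both in CMK6 cultures.

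Type VI collagen is assembled from COL6A1, COL6A2 and another, longer chain, commonly COL6A3. COL6A1 stood at 10.91 and 11.40 in mesenchyme-like cells, with 1478 to 5829 RPM per cell, and COL6A3 stood at 9.77 and 10.06. COL6A3 stood at 0.05, 0.00 and 0.00 in hypoblast-like cells and at most at 2.38, in gastrulating-like cells of E16, in the other units of at least 5 cells. It was read in 32 of 49 gastrulating-like cells (65.3%) and 16 of 31 ESC. COL6A1 was more widespread. It stood at 5.56, 5.16 and 5.503 in hypoblast-like cells, and in epiblast-like cells at 5.03, 4.45 and 5.38 on the early days and 1.65, 1.94, 3.91 and 1.10 on the late days. Cells of the early epiblast and hypoblast thus held COL6A1 with hardly any COL6A3.

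COL6A3 gave the smallest adjusted p of any collagen in the comparison of mesenchyme-like and epiblast-like cells, with a change of 9.74 ± 0.43 (adjusted p = 1.66e-13), and against hypoblast-like cells it was 9.90 ± 0.40 (adjusted p = 1.04e-14). COL6A1 changed by 9.36 ± 0.87 (adjusted p = 1.87e-08) and 5.75 ± 0.80 (adjusted p = 5.6e-06). COL6A1 was higher in hypoblast-like than in trophectoderm-like cells (3.07 ± 0.67, adjusted p = 0.00202), lower in trophectoderm-like than in epiblast-like cells (-2.62 ± 0.67, adjusted p = 0.00532) and lower in late than in early epiblast-like cells (-2.81 ± 0.67, adjusted p = 0.00231). The last pair of calls was lost when the log was taken of the mean RPM, with units of at least 10 cells, and at a lower clustering resolution.

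COL6A6, an alternative to COL6A3, was a collagen of the early trophectoderm-like cells. It stood at 3.16, 2.76, 3.34 and 3.20 from E06 to E09, against 1.22, 0.89 and 0.99 in hypoblast-like cells and 0.00, 0.32 and 0.98 in epiblast-like cells. The days did not overlap. It was higher than in epiblast-like cells by 2.68 ± 0.34 (adjusted p = 2.2e-06), and hypoblast-like cells were lower than trophectoderm-like cells (-2.08 ± 0.34, adjusted p = 8.45e-05). On E14 the level in trophectoderm-like cells was 0.90. Among the levels given here, COL6A6 reached the filter level of 2 only on the early trophectoderm-like days. That it was tested and counted may therefore rest on the group where it was high. The related COL6A5 was untested and stood at no more than 0.30 in any unit.

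Among the transmembrane collagens, COL17A1, a component of hemidesmosomes that ties epithelial cells to the basement membrane, was highest in early epiblast-like cells. It stood at 4.28, 3.66 and 4.81 in epiblast-like cells of E07, E08 and E09 and at 0.00, 0.00, 0.36 and 0.18 from E13 to E17. Hypoblast-like cells held 0.74, 0.60 and 1.66, early trophectoderm-like cells 0.88, 1.47, 1.60 and 1.21, and no ESC culture exceeded 0.28. The fall in epiblast-like cells was -4.12 ± 0.31 (adjusted p = 1.54e-09). Hypoblast-like and trophectoderm-like cells were lower than early epiblast-like cells (-3.25 ± 0.34, adjusted p = 1.48e-07, and -2.96 ± 0.31, adjusted p = 1.89e-07). Among the units of the fit, COL17A1 reached the filter level of 2 only on the early epiblast-like days. It was therefore tested, and entered the lower counts of these comparisons, only through the group where it was high. No mesenchyme-like cell had a read of COL17A1 (0 of 32, which at a limit of 3 counts allows a share of up to 9.38%, counting error only), and the difference from hypoblast-like cells (adjusted p = 0.0487) was lost without E13 or E14 mesenchyme-like or E07 or E09 hypoblast-like cells.

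COL23A1, a transmembrane collagen of epithelial cells, marked the hypoblast. It stood at 4.96, 5.10 and 6.25 in hypoblast-like cells, with a read in 50 of 54, against 0.72, 0.92 and 0.71 in epiblast-like and 0.36, 0.03, 0.31 and 0.47 in trophectoderm-like cells. After E09 the highest unit of at least 5 cells was that of E17 gastrulating-like cells (2.92), and mesenchyme-like cells held 0.71 and 0.54 on E13 and E14. The changes were 4.65 ± 0.40 against epiblast-like (adjusted p = 9.24e-09), 5.14 ± 0.37 against trophectoderm-like (adjusted p = 4.32e-10) and -4.81 ± 0.45 for mesenchyme-like against hypoblast-like cells (adjusted p = 1.09e-08).

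COL13A1, a transmembrane collagen of cell-matrix adhesions, appeared in gastrulating-like cells. It stood at 0.00, 0.62, 2.41 and 2.81 there on E13, E14, E16 and E17 and at 0.00, 0.00, 0.19 and 0.24 in epiblast-like cells. The change on E16 and E17 was 2.40 ± 0.27 (adjusted p = 7.98e-06). Among the units of the fit, COL13A1 reached the filter level of 2 only in these 2 gastrulating-like units. It was therefore tested, and entered the count of 3 higher collagens, only through the group where it was high. COL25A1, a neuronal transmembrane collagen, stood at 1.84 and 1.73 in epiblast-like cells of E13 and E14 and at 0.03 and 0.07 in mesenchyme-like cells (-1.74 ± 0.49, adjusted p = 0.0103, lost without E13 epiblast-like cells). It was also lower in hypoblast-like than in early epiblast-like cells (-1.30 ± 0.40, adjusted p = 0.0212), a call lost without E08 epiblast-like or without E08 or E09 hypoblast-like cells.

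**Figure D5:**
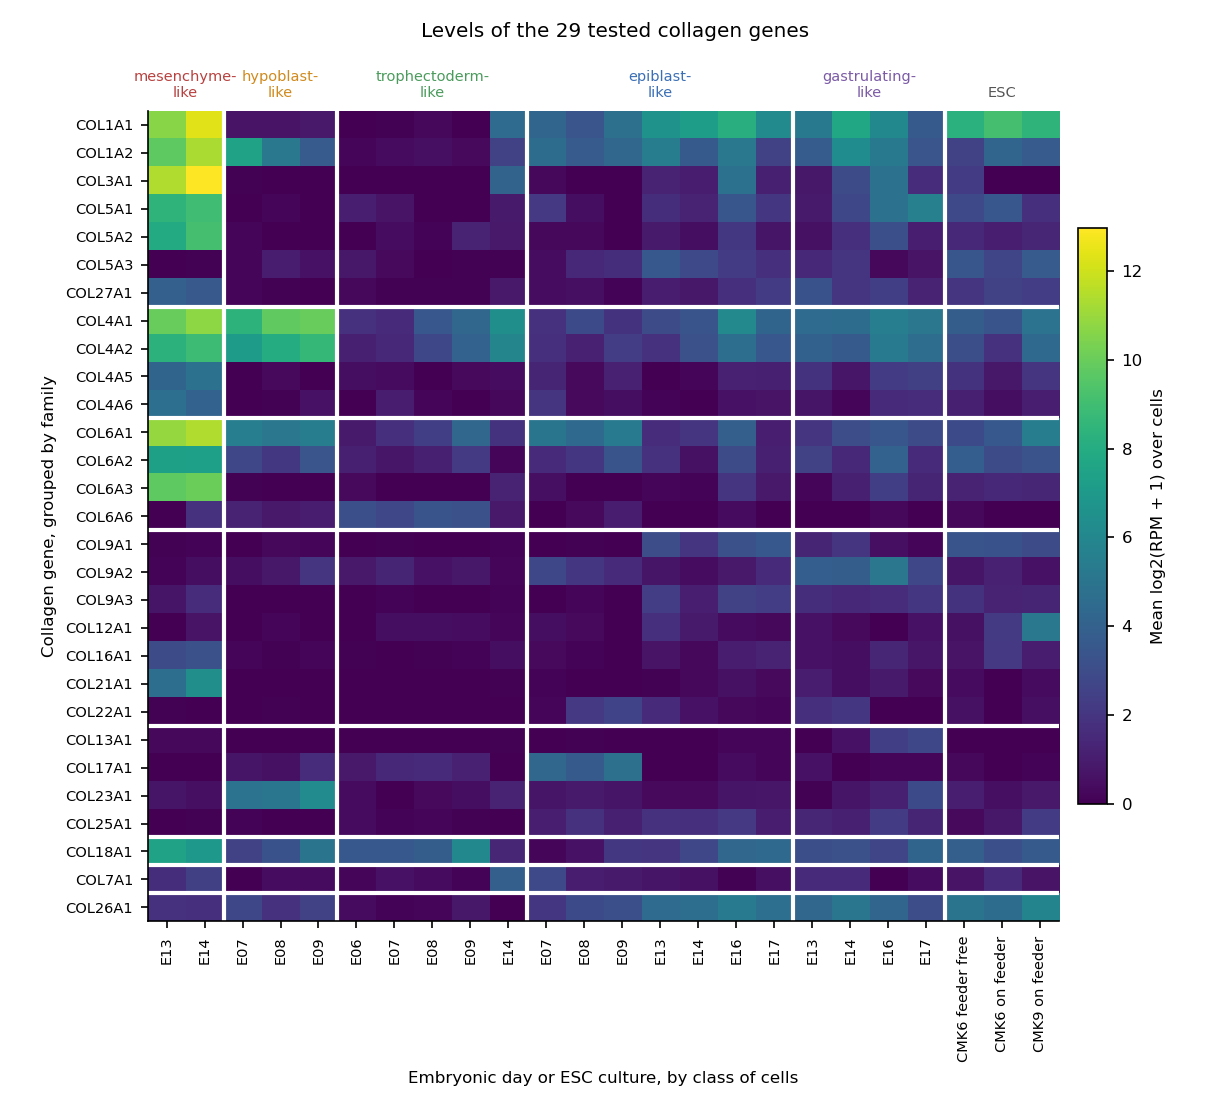
The colour gives the mean log2(RPM + 1) of each of the 29 tested collagen genes (vertical axis, by family) in each day or ESC culture (horizontal axis, by class). The mesenchyme-like columns reach 12.96 for COL3A1, and in the hypoblast-like columns COL4A1, COL4A2 and COL23A1 stand out.

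Among the fibril-associated collagens, the chains of type IX parted company. Type IX coats cartilage fibrils and is assembled from COL9A1, COL9A2 and COL9A3. COL9A1 stood at 0.00, 0.08 and 0.00 in early and 3.07, 2.02, 3.20 and 3.55 in late epiblast-like cells, and at 3.35, 3.24 and 3.02 in the ESC cultures. COL9A3 went the same way, with 0.00, 0.16 and 0.00 early and 2.34, 1.10, 2.52 and 2.33 late. COL9A2 went the opposite way, with 2.83, 2.05 and 1.59 early and 0.72, 0.45, 0.90 and 1.54 late. In gastrulating-like cells the order of the first and second chain was exchanged: COL9A2 stood at 3.88, 3.81, 5.13 and 2.76 and COL9A1 at 1.36, 1.95, 0.53 and 0.23 on E13, E14, E16 and E17.

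From early to late epiblast-like cells, COL9A1 changed by 2.93 ± 0.28 (adjusted p = 3.15e-08), COL9A3 by 2.02 ± 0.30 (adjusted p = 1.76e-05) and COL9A2 by -1.26 ± 0.45 (adjusted p = 0.0327). The COL9A2 call was lost without E07, E08, E13, E14 or E16. On E16 and E17, gastrulating-like cells exceeded epiblast-like cells in COL9A2 by 2.73 ± 0.59 (adjusted p = 0.00659) and were lower in COL9A1 (-2.99 ± 0.37, adjusted p = 1.67e-05). Without E16 gastrulating-like cells the COL9A2 change was 1.54 (adjusted p = 0.202), and it was also lost without E16 epiblast-like cells (adjusted p = 0.112). COL9A1 was lower in mesenchyme-like than in epiblast-like cells (-2.45 ± 0.37, adjusted p = 1.72e-05).

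COL21A1, a fibril-associated collagen of vessel walls, stood at 4.71 and 6.42 in mesenchyme-like cells and was read in 31 of the 32. It was also read in 17 of 139 epiblast-like cells (12.2%), 9 of 49 gastrulating-like cells (18.4%), 3 of 31 ESC and 2 of 84 trophectoderm-like cells, at no more than 62.5 RPM. No read was seen in 54 hypoblast-like cells (a limit of 3 counts allows a share of up to 5.56%) or in 73 trophectoderm-like cells of E06 to E09 (up to 4.11%). COL16A1, which binds integrins, stood at 2.95 and 3.20 in mesenchyme-like cells and at no more than 2.17 in other units of at least 5 cells. Both were called higher in mesenchyme-like cells against both epiblast-like and hypoblast-like cells.

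COL12A1, which decorates fibrils in dense connective tissue, was the collagen called in ESC. It stood at 0.57 in CMK6 without feeders, 2.19 in CMK6 on feeders and 5.18 in CMK9, and at 1.77, 0.95, 0.39 and 0.27 in late epiblast-like cells. The groups overlapped, and the change was 1.80 ± 0.59 (adjusted p = 0.04999). Among the units of the fit, COL12A1 reached the filter level of 2 only in the cultures on feeders. It was therefore tested only through the group where it was high. Without CMK9 the change was 0.54 (adjusted p = 0.452), and of the 7 units only the removal of CMK6 without feeders kept the call. COL22A1, found at tissue junctions, stood at 0.17, 2.13 and 2.61 in early epiblast-like cells and at 0.00 in all 4 early trophectoderm-like days. COL14A1, COL19A1 and COL20A1 did not pass the filter, and their highest levels in a named unit of at least 5 cells were 1.54 (E09 epiblast-like), 0.44 (E09 hypoblast-like) and 1.42 (E06 trophectoderm-like).

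COL22A1 was lower in hypoblast-like than in epiblast-like cells (-1.60 ± 0.40, adjusted p = 0.0052) and lower in trophectoderm-like cells (-1.64 ± 0.38, adjusted p = 0.00231). The first call was lost without E09 epiblast-like cells (adjusted p = 0.0535), and with the day as a block the second was lost too (adjusted p = 0.0767).

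COL18A1, a basement membrane multiplexin whose end fragment is endostatin, was shared among several classes. It stood at 7.46 and 6.91 in mesenchyme-like cells, at 3.58, 3.57, 3.83 and 6.05 in trophectoderm-like cells from E06 to E09, and at 2.56, 3.29 and 4.99 in hypoblast-like cells. Epiblast-like cells held 0.17, 0.66 and 2.10 early and 1.95, 2.78, 4.30 and 4.45 late, so early and late overlapped. It was higher in trophectoderm-like (3.28 ± 0.60, adjusted p = 0.000251) and hypoblast-like cells (2.64 ± 0.64, adjusted p = 0.00401) than in early epiblast-like cells, and higher in late epiblast-like cells (2.39 ± 0.60, adjusted p = 0.00351). The other multiplexin, COL15A1, was untested and reached 1.77 in E14 trophectoderm-like cells.

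COL7A1 forms the anchoring fibrils under epithelia. Its highest level in a unit of at least 5 cells was 3.94 in E14 trophectoderm-like cells, followed by 2.86 in E07 epiblast-like and 2.44 in E14 mesenchyme-like cells. It was lower in hypoblast-like (-1.36 ± 0.40, adjusted p = 0.0163) and in late epiblast-like cells (-1.14 ± 0.37, adjusted p = 0.0215) than in early epiblast-like cells. Without E07 epiblast-like cells these changes were -0.74 and -0.52 (adjusted p = 0.247 for the latter) and neither was called. The first was lost without E07 hypoblast-like cells as well, and the second without E14 or E16.

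COL26A1, a secreted collagen known from the gonads, was found in several classes. It stood at 2.06, 2.89 and 3.17 early and at 4.52, 4.66, 5.37 and 4.76 late in epiblast-like cells, and at 5.00, 4.60 and 5.85 in ESC. Hypoblast-like cells held 2.80, 1.86 and 2.51, not called against epiblast-like cells (adjusted p = 0.694), and gastrulating-like cells 4.28, 5.10, 4.23 and 3.04. Trophectoderm-like cells from E06 to E09 held 0.38, 0.15, 0.23 and 0.84. It was higher on the late epiblast-like days by 2.12 ± 0.41 (adjusted p = 0.000377) and lower in mesenchyme-like (-2.81 ± 0.54, adjusted p = 0.000381) and trophectoderm-like cells (-2.31 ± 0.41, adjusted p = 0.0002) than in epiblast-like cells (of E13 and E14, and of E07 to E09). Hypoblast-like cells exceeded trophectoderm-like cells by 1.99 ± 0.41 (adjusted p = 0.00129). The short-chain collagens COL8A1, COL8A2 and COL10A1, which form networks in vessels and growth plate cartilage, did not pass the filter and stood at or below 1.00 in every unit of at least 5 cells, as did COL28A1.

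Most genes that modify and fold collagen chains were higher in mesenchyme-like cells than in epiblast-like cells. Of a list of 24 symbols for hydroxylation, glycosylation and folding, 18 were in the table and 15 were tested. In mesenchyme-like against epiblast-like cells their median change was 2.38, against -0.13 over all genes. Of these 15 genes, 13 were higher and 0 lower (11.6% and 13.5% of all genes). They included PLOD2, a lysyl hydroxylase (3.51 ± 0.52, adjusted p = 1.66e-05), LEPRE1, a prolyl hydroxylase (3.11 ± 0.50, adjusted p = 5.09e-05), and the chaperone FKBP10 (3.0 ± 0.46, adjusted p = 2.45e-05). Against hypoblast-like cells 7 were higher and 0 lower (10.7% and 18.1% of all genes). FKBP10 had no read in hypoblast-like units while it stood at 5.81 in mesenchyme-like cells. Hypoblast-like cells had 7 higher and 1 lower than epiblast-like cells (10.1% and 12.1% of all genes). The higher ones included SERPINH1, the collagen-specific chaperone of the endoplasmic reticulum (3.98 ± 0.46, adjusted p = 7.54e-07). They also included the prolyl isomerase PPIB (3.24 ± 0.31, adjusted p = 4.38e-08). P4HA1, a prolyl hydroxylase subunit, was higher by 2.61 ± 0.51 (adjusted p = 0.000519, lost with units of at least 10 cells). Against trophectoderm-like cells hypoblast-like cells had 6 higher and 0 lower (7.44% and 6.34% of all genes). SERPINH1 was higher there by 6.66 ± 0.43 (adjusted p = 9.59e-11).

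In trophectoderm-like against epiblast-like cells 1 of these 15 genes was higher and 3 lower, near the shares of all genes (9.66% and 13.1%), with PPIB higher by 2.80 ± 0.29 (adjusted p = 1.26e-07) and SERPINH1 lower (-2.68 ± 0.43, adjusted p = 5.61e-05). Late epiblast-like cells had 3 higher and 2 lower than early ones (13.5% and 21.6% of all genes), with FKBP10 rising by 3.05 ± 0.35 (adjusted p = 5.35e-07), SERPINH1 by 2.32 ± 0.43 (adjusted p = 0.000225) and PLOD1 lower (-1.64 ± 0.30, adjusted p = 0.000211). ESC had 3 higher and 0 lower than late epiblast-like cells (9.02% and 2.01% of all genes). They were led by FKBP10 (3.41 ± 0.35, adjusted p = 1.01e-06). None of the 15 was called in gastrulating-like cells.

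For secretion, cleavage and crosslinking, 11 genes were tested. Of these, 4 were higher and 0 lower in mesenchyme-like than in epiblast-like cells (11.6% and 13.5% of all genes). They were led by SPARC, a collagen-binding matrix protein (4.22 ± 0.58, adjusted p = 6.65e-06), PCOLCE2, an enhancer of propeptide cleavage (4.11 ± 0.87, adjusted p = 0.000971), and the crosslinking enzyme LOXL1 (3.41 ± 0.53, adjusted p = 2.93e-05). Against hypoblast-like cells 7 were higher and 1 lower (10.7% and 18.1% of all genes). Hypoblast-like cells had 1 higher and 3 lower than epiblast-like cells (10.1% and 12.1% of all genes), the higher count near that share. The lower ones included PXDN, peroxidasin (-3.69 ± 0.45, adjusted p = 1.54e-06), and LOXL2 (-3.68 ± 0.63, adjusted p = 0.000118), both known to crosslink type IV collagen. Against trophectoderm-like cells hypoblast-like cells had 2 higher and 0 lower (7.44% and 6.34% of all genes), with SPARC at 6.75 ± 0.45 (adjusted p = 1.18e-10). Trophectoderm-like cells had 1 higher and 4 lower than epiblast-like cells (9.66% and 13.1% of all genes). SPARC (-6.30 ± 0.45, adjusted p = 4.18e-10) and PXDN (-5.88 ± 0.42, adjusted p = 4.18e-10) fell furthest. The late epiblast-like days had 1 higher and 3 lower (13.5% and 21.6% of all genes), gastrulating-like cells 1 higher and 0 lower (1.7% and 2.37%), and ESC 1 higher and 0 lower (9.02% and 2.01%), so the late epiblast-like and ESC counts lay near the shares of all genes. At a lower clustering resolution PXDN was not called between hypoblast-like and epiblast-like cells.

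Of the 6 tested collagen receptors, 3 were higher and 1 lower in mesenchyme-like than in epiblast-like cells (11.6% and 13.5% of all genes). ITGA1, the alpha subunit of a collagen-binding integrin, was higher by 7.13 ± 0.45 (adjusted p = 3.75e-11) and the receptor kinase DDR2 by 3.38 ± 0.39 (adjusted p = 5.37e-07), while its relative DDR1 was lower (-2.77 ± 0.64, adjusted p = 0.00209). Against hypoblast-like cells 5 were higher and 1 lower (10.7% and 18.1% of all genes). DDR2 was the 1 receptor called in gastrulating-like cells (2.51 ± 0.39, adjusted p = 0.000257). In the other comparisons 1 or 2 receptors were higher, where 7.44% to 13.5% of all genes were, and 1 was lower, in trophectoderm-like cells against epiblast-like cells (13.1% of all genes). Of the 4 tested degrading enzymes, MMP2, a gelatinase, was higher in late than in early epiblast-like cells (3.13 ± 0.64, adjusted p = 0.000612) and MMP9, the other gelatinase, was lower (-2.35 ± 0.42, adjusted p = 0.00014). There 13.5% of all genes were higher and 21.6% lower. The early and late days overlapped for MMP2, which stood at 4.98 on E07 and 4.69 on E13. In mesenchyme-like cells 1 was higher and 1 lower than in epiblast-like cells (11.6% and 13.5% of all genes). There 2 were higher than in hypoblast-like cells (10.7% of all genes). Hypoblast-like cells had 1 lower than epiblast-like cells (12.1% of all genes) and trophectoderm-like cells 2 (13.1% of all genes). None was called in hypoblast-like against trophectoderm-like, gastrulating-like or ESC comparisons.

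Markers of other cell types were measured beside these results. The summed level of 4 endothelial markers was 126 to 766 RPM per mesenchyme-like cell of E13 and E14 and 1.06 to 180 in epiblast-like cells of those days. TEK, the angiopoietin receptor, was the highest member of that list in mesenchyme-like cells (7.85 and 8.30). PECAM1 (1.06 and 1.37) and CDH5 (0.61 and 0.79) stood low there. KDR stood at 3.41 and 3.82 in mesenchyme-like cells and higher, at 5.15 and 6.06, in epiblast-like cells of those days. The summed level of 6 fibroblast or decidual markers reached 329 RPM in mesenchyme-like and 157 in epiblast-like cells of E13 and E14. In those mesenchyme-like cells PRL stood at 0, IGFBP1 at 0.70 and 1.82 and ACTA2 at 0.04 and 2.11. In epiblast-like cells IGFBP1 stood at 0 and ACTA2 at 0.04 and 0.25. THY1 and DES stood lower in mesenchyme-like than in epiblast-like cells of those days, and PDGFRB stood higher. In ESC the same list summed to 67.5 to 274 RPM without feeders and to 15.8 to 366 and 70.6 to 261 on feeders, and COL3A1, abundant in fibroblasts, was read in 1 of 14 and 1 of 8 cells on feeders and in 9 of 9 without feeders. The part of these lists in the collagen differences was not tested. E14 trophectoderm-like cells held CDH5 at 5.17 and PECAM1 at 6.55, but KDR at 0.46 and TEK at 0.56.

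Titles of the samples carry an MS code whose meaning the labels do not give. Within the 2 codes that held at least 3 cells of both classes, on the days compared (MS10 and MS61), the COL3A1 difference between mesenchyme-like and epiblast-like cells was 9.71 and 10.01. The mesenchyme-like cells of these codes were 4 in each, all of E13. Those of E14 carried MS09 or MS13, which no epiblast-like cell of E14 carried. On E14 code and class therefore cannot be told apart. Between gastrulating-like and epiblast-like cells, 4 codes (MS08 to MS11) gave differences of 3.24, -0.76, 4.09 and 4.84 for COL5A1, so that it did not hold in MS09. They gave 3.39, 4.09, 1.10 and 0.61 for COL9A2, 1.67, 2.81, 2.74 and 1.45 for COL13A1 and -2.25, -2.65, -3.30 and -3.02 for COL9A1. The named differences of hypoblast-like, epiblast-like and trophectoderm-like cells kept their direction in both codes that held them (MS02 and MS03). ESC on feeders carried MS05 alone and ESC without feeders MS11 alone, so code and culture cannot be told apart.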

How the data were processed

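SC3-seq 3′-end libraries of single monkey cells were deposited as 1 table of gene levels in RPM, which the authors had computed per cell from their read counts. The submitters' processing notes list TopHat 1.4.1, cutadapt 1.3 and Cufflinks 2.2.0 without their roles; the file header names the macFas5 genome. A mouse table in RPM, deposited by the authors separately, was read for levels only, and 37 of its 108 columns that match no sample were not used. Depth was taken from the size of the smallest RPM steps in each cell, and shares of cells carry exact Clopper-Pearson 95% intervals that cover counting error only; for 0 cells the limit printed is 3 counts of the total. No pair of monkey cells correlated above 0.948, so none was treated as the same library.

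Classes were rebuilt with scanpy 1.11.5 (Leiden resolution 1, the 2000 most variable genes among those over 10 RPM in 5 or more cells, 12 components, 10 neighbours) without collagen and collagen-processing genes. A cluster was named where over 50% of a class's detected markers, and at least 3, were raised by at least 1 log2 unit with a mean of at least 3. No doublet caller was run, since each library was deposited as a single cell. Levels are means of log2(RPM + 1) over the cells of a unit. limma 3.58.1 (R 4.3.3; 1 group-means fit over all 24 units, intensity trend, two-sided, Benjamini-Hochberg over all 12277 genes, threshold 0.05) tested the genes whose mean reached 2 in 2 or more units. The fitted changes understate those of low genes because of the pseudocount of 1. The same day paired hypoblast-like with epiblast-like units (correlations of their deviations 0.17, 0.25 and 0.11) and with trophectoderm-like units (0.24, 0.25 and 0.17). It also paired epiblast-like units with trophectoderm-like (0.15, 0.24 and 0.10), mesenchyme-like (0.26) and gastrulating-like units (0.34). The main fit held no term for the day, and the day block was run as an alternative. Neighbouring genes come from RefSeq's annotation of another assembly, so no coordinates are given, and monkey promoter and protein sequences were not used here.

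The members, markers and gene lists were chosen with earlier results of these data known. Per comparison, changes are given for at most 6 collagens higher and 6 lower, those with the largest called change, and at most 3 called genes a list. Alternatives were another pseudocount, filter, trend, scaling, averaging, sample set, unit size, depth limit and clustering resolution, a day block, and leaving out each unit.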

Additional observations from a re-analysis of the deposited data

Results flagged for a closer look

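Among the 22 groups of days examined for a day far from the others (gap over range above Dixon's 95% critical value for 4 days), 3 held one, where chance gives about 1 in 20. COL3A1 in late epiblast-like cells stood at 4.89 on E16, with the other late days at 0.96 to 1.24. COL9A3 in late epiblast-like cells stood at 1.10 on E14, below 2.33 to 2.52 on the other days. COL18A1 in trophectoderm-like cells stood at 6.05 on E09, with E06 to E08 at 3.57 to 3.83.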

How the results depend on the processing

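No named change reversed: of 1104 values for 57 collagen changes under the alternatives, 1013 kept their side of the threshold and 91 lost it (17 changes, 11 of them without a unit), and of 1229 for 63 changes of list genes 82 lost it. The collagen counts below are those that moved by over 1.5 times, and their cause was not tested except where fewer units or genes were tested. For mesenchyme-like against hypoblast-like cells the lower count was 1 with pseudocount 10, only the groups compared, units of at least 10 cells, cells of at least 500000 reads, resolution 0.7, or without the 8 cells at the mesenchyme marker level (an alternative chosen after seeing the data). For hypoblast-like against epiblast-like cells the lower count was 3 with only the groups compared and 2 with units of at least 10 cells or resolution 0.7. Hypoblast-like against trophectoderm-like cells had 0 lower with the log of mean RPM. Trophectoderm-like against epiblast-like cells had 4 lower with units of at least 10 cells and 5 at resolution 0.7. Late against early epiblast-like cells had 5 higher with units of at least 10 cells, and 2 lower without a filter or at resolution 0.7 and 1 with the log of mean RPM or units of at least 10 cells. Gastrulating-like cells had 1 higher with only the groups compared, and 2 lower with pseudocount 0.1, quantile scaling, units of at least 10 cells or without the 8 cells. ESC had 2 higher with pseudocount 0.1 or no filter, and 0 with pseudocount 10, no trend, quantile scaling, the log of mean RPM, only the groups compared, units of at least 10 cells, cells of at least 500000 reads, resolution 0.7 or without the 8 cells. With a replicate block by day, hypoblast-like against epiblast-like cells had 3 lower and gastrulating-like cells 6 higher and 4 lower; the days of the latter are only 2 pairs, and the block moved no other count by over 1.5 times.

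Leaving out 1 unit at a time gave 16 to 18 higher and 3 to 4 lower for mesenchyme-like against epiblast-like cells, 14 to 16 and 1 to 2 against hypoblast-like, 4 and 4 to 5 for hypoblast-like against epiblast-like, 6 and 1 against trophectoderm-like, 2 and 7 to 9 for trophectoderm-like against epiblast-like, 7 to 11 and 2 to 4 for late against early, 1 to 2 and 1 to 2 for gastrulating-like, and 0 to 3 and 0 for ESC. A planned count model (edgeR) was not run, since some RPM values below 0.01 are not whole multiples of a cell's step and the reads were not accepted as recovered. Days stand in for animals, group sizes are 2 to 4 units, and low collagens in few cells are near 1 read at this depth.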

Other observations

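The mouse table, normalized separately and read for levels only, holds 43 collagen genes in 71 cells of strain C57BL/6: embryonic cells of E5.5 (25) and E6.5 (24), and, of line BVSC R8, ESC in 2i/LIF (10) and EpiLC (12). Cells named visceral-endoderm-like, the mouse counterpart of the hypoblast lineage, held Col4a1 at 9.28 on E5.5 (9 cells) and 7.64 on E6.5 (5 cells) in log2(RPM + 1), and Col4a2 at 8.50 and 8.12. Col23a1 stood at 6.07 and 6.05 in them and at 0.17 and 1.13 in the other embryonic cells of those days. Col1a2 stood at 0.11 and 0.41 in the visceral-endoderm-like cells, and COL1A2 in monkey hypoblast-like cells of the blastocyst at 7.48, 5.18 and 3.70, falling from day to day. Col17a1 stood at 0.00 in 2i/LIF ESC and at 0.38 and 0.76 (E5.5 and E6.5) in the other embryonic cells. COL17A1 stood between 3.66 and 4.81 in monkey early epiblast-like cells. In monkey late epiblast-like cells it stood no higher than in those mouse embryonic cells. Col18a1 stood high across the mouse cells, at 6.58 in 2i/LIF ESC, 7.72 in EpiLC, 7.81 and 6.02 in the other embryonic cells and 5.34 and 3.93 in visceral-endoderm-like cells. The stages of the species were not matched, so species and stage cannot be told apart here, and the species difference was not tested.

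Units of fewer than 5 cells and the unnamed cluster entered no comparison. The 2 trophectoderm-like cells of E16 had a mean summed collagen level of 2989 RPM, with 41.7% type I and 19.7% type III, and COL3A1 at a mean of 9.16 on the log2 scale. The 2 mesenchyme-like cells of E16 held COL3A1 at 14.17, COL13A1 at 3.24 and COL23A1 at 4.77. They also held the epiblast markers POU5F1 at 9.01 and NANOG at 5.16. Mesenchyme-like cells held POU5F1 at 2.81 and 3.20 and NANOG at 0.83 and 1.98 on E13 and E14. The 31 unnamed cells of E06 had a mean sum of 62.5 RPM and held COL17A1 at 2.10 and COL11A2 at 2.42.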
